A study of Mus musculus with 2 samples.

Results

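The regions described here are 305 isolated peaks of high pileup, out of 947 peaks (32.2%, 95% exact binomial interval 29.2% to 35.3%) at which RNA recovered from C2C12 myoblasts with Flag-tagged Zc3h10 exceeded RNA from myoblasts with GFP. They were chosen by position and height. Peaks on chromosomes 1 to 19 and X that started within 10000 bases of the end reached by the peaks before them were joined into loci, and a peak alone in its locus was kept where its pileup, the number of extended fragments over its summit in the Flag-Zc3h10 library, was 100 or more. On these 20 chromosomes lay 938 peaks, of which 236 were also isolated but had a lower pileup and 397 shared a locus with another peak. The height was therefore a criterion, and pileup, fold enrichment, control level and p-value come from the comparison that chose the regions. They are given as a description, without a test, and no comparison below with other peaks was tested.

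C2C12 is a mouse myoblast line that can fuse into myotubes. Both groups were infected for 48 h with an adenoviral vector at a multiplicity of infection of 5, and in both vectors a CMV promoter drove the insert. The first group expressed mouse Zc3h10 with an N-terminal Flag tag, and its RNA was taken from agarose beads carrying anti-Flag antibody. The second group was labelled wildtype with GFP expression and its antibody as none, while the shared protocol adds Flag beads to each sample, so whether the GFP lysate met the beads cannot be told from the labels. Each group was 1 library, with 10439835 tags kept for Flag-Zc3h10 and 10849213 for GFP. No input library was used here, and Zc3h10 was overexpressed rather than studied at its own level.

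Zc3h10 belongs to the CCCH zinc finger proteins, a family in which many members bind RNA through fingers in which cysteines and a histidine hold a zinc ion. The title of the series links it to mitochondrial function through iron and cardiolipin, the phospholipid of the inner mitochondrial membrane. In RNA immunoprecipitation a tagged protein is pulled down with the RNA attached to it, and an RNA that is abundant in the cell also reaches the beads without specific binding. The level in the GFP library is therefore given beside the height in the Flag-Zc3h10 library. Recovery with the protein and a change in an RNA's abundance under Flag-Zc3h10 cannot be told apart here.

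The isolated peaks of high pileup were regions where the GFP library was itself well covered and the fold enrichment was moderate. Their median pileup was 260 fragments, with quartiles of 162 and 391 and a highest value of 1187. The control level, which is the pileup divided by the fold enrichment and stands for the local coverage expected from the GFP library, had a median of 132 fragments (95% interval of the median from ranks 118 to 144) and ranged from 9.62 to 927. It was 100 or more at 196 regions (64.3%, interval 58.6% to 69.6%), beside 34.1% of all listed peaks. At 33 regions (10.8%, interval 7.57% to 14.9%) it was 300 or more, beside 6.12% of all listed peaks. Every listed ratio was 1.22 or more, so a control level of 100 or more requires a pileup above 100. The pileup limit thus fixes part of these differences, and nothing is read from them. No region had a control level at the genome-wide background of 2.79 fragments (0 of 305, which allows a share of up to 0.984%), so none of their ratios was bounded by that floor. At the isolated peaks of lower pileup the control level had a median of 10.6 fragments and was at background at 25 of 236. At the 224 clustered peaks with a pileup of 100 or more it had a median of 114 fragments and was at background at none. Among these it was 100 or more at 127 (56.7%, interval 49.9% to 63.3%). It was 300 or more at 25 (11.2%), a share near that of the 305 regions. These intervals cover counting error over peaks only.

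Fold enrichment had a median of 1.86 (interval from ranks 1.76 to 1.98), and its quartiles were 1.57 and 2.68. Single values ran from 1.22 to 10.81. Of the 305 regions, 132 were enriched 2-fold or more (43.3%, interval 37.6% to 49.0%), beside 72.9% of all listed peaks. The 4-fold mark was reached by 13 (4.26%, interval 2.29% to 7.18%), beside 26.0% of all listed peaks, and 59 were under 1.5-fold (19.3%, interval 15.1% to 24.2%), beside 7.81%. Since the pileup limit chose the regions and enters the ratio, nothing is read from these differences. In absolute terms the excess of pileup over control level was 39.7 to 522 fragments, with a median of 107. The median excess was 66 over all listed peaks and 165 at the 224 clustered peaks with a pileup of 100 or more. The caller's −log10 q was 10 or more at 191 regions (62.6%), beside 63.8% of the list. Among these, 65 regions (21.3% of the 305, interval 16.9% to 26.3%) were enriched less than 2-fold. At a greater pileup a smaller ratio passes a count threshold. The same share was not computed over the whole list, so nothing is read from this count.

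**Figure D1:**
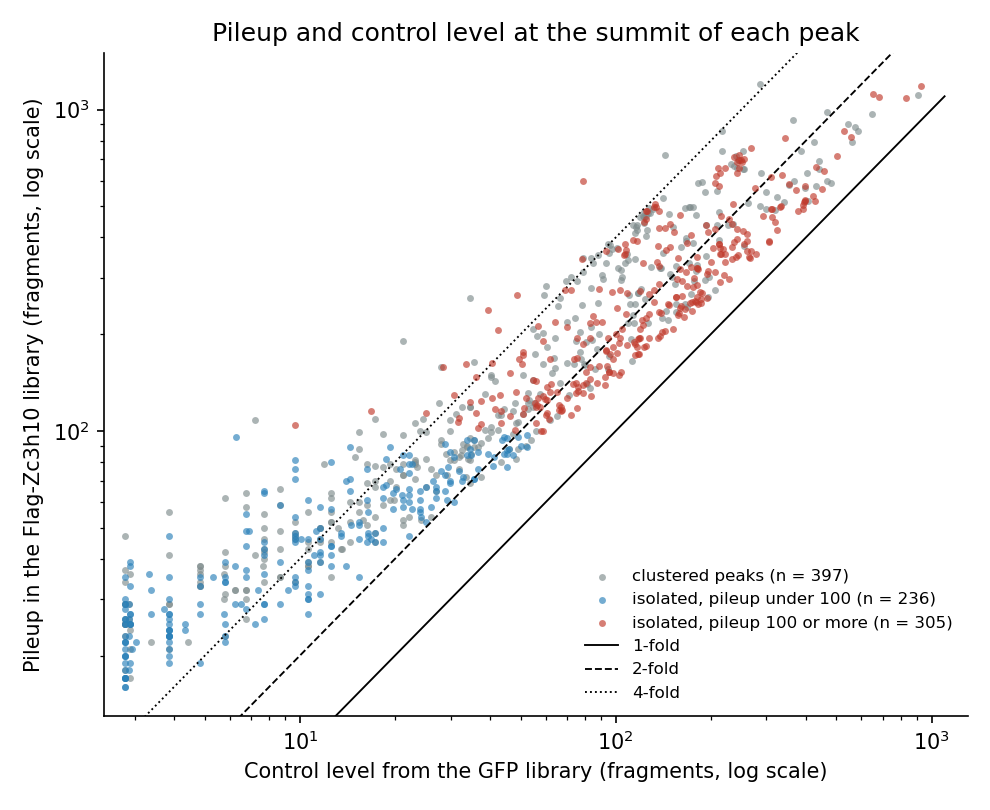
Pileup in the Flag-Zc3h10 library against the control level from the GFP library at the summit of each peak on chromosomes 1 to 19 and X, both in fragments on log axes, 1 point per peak, with lines at 1-fold, 2-fold and 4-fold enrichment. The 305 isolated peaks of high pileup (red) have control levels with quartiles of 76.1 and 213 fragments, and 13 of them reach the 4-fold line.

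The smallest listed enrichment was lower at greater pileup, as a count threshold requires. The lowest ratio was 1.45 among the 65 regions with 100 to under 150 fragments, 1.43 among 47 with 150 to under 200, 1.3 among 65 with 200 to under 300, 1.25 among 85 with 300 to under 500 and 1.22 among 43 with 500 or more. The median ratio in the same order was 2.11, 1.81, 1.72, 1.79 and 1.98. Median control levels were 58.7, 95.0, 140, 201 and 333 fragments. Across the 305 regions, pileup and control level had a Spearman's rho of 0.86, control level and fold enrichment -0.56, and pileup and fold enrichment -0.12. All of these come from the same pair of libraries, and the ratio contains the pileup.

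A pileup of 1000 or more was reached at 4 regions, all enriched less than the median of the 305. The tallest, chr1:94754487-94756353 (mm9, as all positions here), carried 1187 fragments over a control level of 927 and was enriched 1.28-fold. The region chr5:144181537-144182605 carried 1116 fragments over 653 (1.71-fold), chrX:54044920-54046786 carried 1094 over 679.5 (1.61-fold), and chr5:37186579-37187681 carried 1090 over 832 (1.31-fold). At all 4 the control level was greater than the excess of the pileup over it. The next in height were chr10:79354451-79355028 with 858 fragments (1.63-fold), chr8:112098838-112100127 with 822 (1.48-fold), chr10:110943385-110945933 with 813 (2.37-fold), chr13:21904916-21910560 with 761 (2.84-fold), chr8:125689178-125694866 with 720 (2.94-fold) and chr8:86095712-86097653 with 715 (1.42-fold). Of the 50 tallest peaks of the whole list, 24 were isolated. Tags were limited to 2 per position and extended to 500 bases, which caps the pileup. Whether this cap lowered the ratios of the tallest regions was not tested.

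Of the 13 regions of at least 4-fold enrichment, 1 carried 500 fragments or more. The region chr10:127980931-127982740 carried 601 fragments over a control level of 78.9, a 7.62-fold enrichment and an excess of 522 fragments, the largest of the 305. Its −log10 p of 305.81 was also the highest of the 305, and among the other 42 regions of 500 or more fragments the highest ratio was 3.82. Chromosome 10, which held 21 of the 305 regions, is also the chromosome of the Zc3h10 gene, whose coding sequence the Flag vector carried. No annotation of mm9 was used here, so the region was not assigned to a gene. Whether its RNA came from the vector was not tested. The highest ratio of all, 10.81, belonged to chr17:26406131-26408003, with 104 fragments and a control level of 9.62, the lowest of the 305. It lay close to the pileup limit. Next came chr6:87930034-87931225 with 115 fragments over 16.8 (6.83-fold) and chr16:65839027-65840434 with 238 over 39.5 (6.03-fold).

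The other regions among the 10 most enriched had pileups of 114 to 344 fragments. The region chr11:61301050-61302241 was enriched 5.56-fold, chr8:123641329-123643059 5.45-fold, chr2:30327746-30329181 4.87-fold, chr1:166752922-166754680 4.81-fold, chr10:116398762-116400549 4.56-fold and chr8:122416242-122420522 4.41-fold. All 13 regions of at least 4-fold enrichment had their summit in the inner part of the peak, at 33.3% to 49.5% of the width from the nearer end. Their control levels were 9.62 to 78.9 fragments. They were 879 to 4281 bases wide, and each reached a −log10 q of at least 34.46.

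Regions on either side of the limit of 100 fragments are given without a test. Just inside it, chr18:73749975-73750645 and chr5:104521795-104522429 each had 100 fragments (1.70-fold and 1.73-fold), chr17:56036838-56037419 had 101 (2.10-fold), chr19:32560488-32561471 had 102 (2.79-fold), and the chromosome 17 region named above had 104. Just outside it, chr17:34782753-34783298 had 97 fragments (1.85-fold), chr19:30033941-30034480 and chr8:11454333-11454879 had 96 (1.96-fold and 2.17-fold), and chr10:59831693-59832225 had 95 (2.10-fold). The region chr12:110781848-110784761, also at 96 fragments, was enriched 15.35-fold, above each of the 305, and was left out by the height limit.

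Widths ran from 500 to 5930 bases with a median of 1017 (interval from ranks 914 to 1144) and quartiles of 633 and 1561. The smallest width equals the 500 bases to which the caller extended each tag, and 62 regions (20.3%, interval 15.96% to 25.3%) were under 600 bases. This share was 28.1% over all listed peaks and 17.4% at the 224 clustered peaks of the same height. The narrowest were chr2:166620898-166621397 and chr7:87370648-87371147, both 500 bases, chr3:154284707-154285207 with 501, chr14:47722766-47723268 with 503, and chr1:16122556-16123059 and chr14:66594000-66594503, tied at 504. These 6 carried 109 to 242 fragments and were enriched 1.52-fold to 1.77-fold. At 50 regions (16.4%, interval 12.4% to 21.0%) the width was 2000 bases or more. It was so at 12.4% of all listed peaks and 26.3% of the clustered peaks of the same height. The median width was 653.5 bases at the isolated peaks of lower pileup and 1397 bases at the 224 clustered peaks of the same height.

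Wider regions were more enriched, while their control level differed little below 5000 bases. Median fold enrichment was 1.58 in the 62 regions under 600 bases, 1.75 in the 55 of 600 to under 800, 1.71 in the 66 of 800 to under 1200, 2.11 in the 72 of 1200 to under 2000, 2.745 in the 32 of 2000 to under 5000 and 3.0 in the 18 above. Median control levels in the same order were 132, 115, 137, 118, 141 and 209 fragments. Spearman's rho with width was 0.55 for fold enrichment and 0.06 for control level across the 305 regions. Without the 18 widest these values were 0.49 and -0.01. The caller sets the width by where the excess passes its threshold, so width and enrichment share their source.

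**Figure D2:**
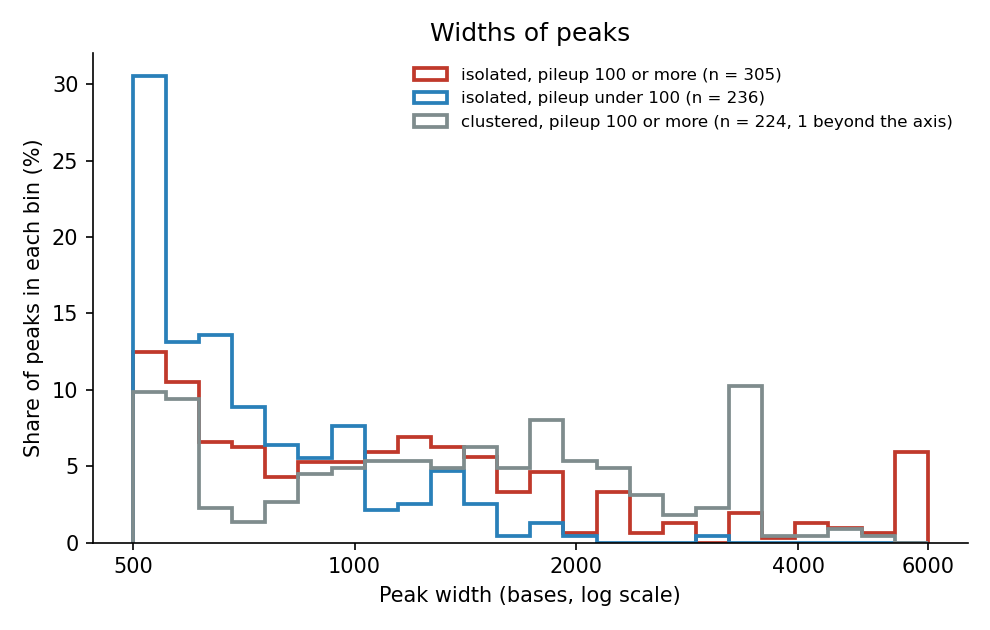
Distribution of peak width in bases (log axis) as the share of peaks in each bin, for isolated peaks with a pileup of 100 or more (n = 305), isolated peaks with a pileup under 100 (n = 236) and clustered peaks with a pileup of 100 or more (n = 224, of which 1 is wider than the axis). The isolated peaks of high pileup show a separate group of 18 at 5500 to 6000 bases.

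Between 4929 and 5507 bases no isolated peak of high pileup was found, and 18 regions lay between 5507 and 5930 bases, on 11 chromosomes. No other single peak of the list was 5500 to 6000 bases wide. Chromosome 5 held 5 of the 18, and chromosomes 4, 10 and 11 held 2 each. All were enriched 2.74-fold to 3.85-fold, at pileups of 427 to 761 fragments, and their summits lay 18.3% to 41.0% of the width from the nearer end. In 7 regions the control level was 124 to 137 fragments and the pileup 427 to 507. In the other 11 the control level was 206 to 268 and the pileup 592 to 761, and no region lay between these ranges. The division at a control level of 150 was made after the values were seen. These levels were not particular to the 18 regions, as narrower clustered peaks also fell within both ranges. Examples, picked after their values were seen, lay on chromosome 5 (3571 bases, 493 fragments, control level 127) and chromosome 11 (3348 bases, 696 fragments, control level 243).

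The 7 regions of lower control level had a median width of 5886 bases and a median enrichment of 3.72. The widest was chr5:122643273-122649202 (5930 bases, 499 fragments), followed by chr1:184187647-184193548 (5902 bases, 458 fragments), chrX:15051558-15057456 (5899 bases, 485 fragments), chr5:77359931-77365816 (5886 bases, 498 fragments) and chr4:107821337-107827214 (5878 bases, 484 fragments). In this order the summit lay 2242, 2398, 2410, 2405 and 2411 bases from the nearer end. The remaining 2 were chr4:32878445-32884127, the lowest at 427 fragments, with its summit 2093 bases from an end, and chr10:4622675-4628318, whose summit lay 1035 bases from its end, nearer than in the other 17 (1954 to 2411 bases).

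The 11 regions of higher control level had a median width of 5740 bases and a median enrichment of 2.94, with the summit 1954 to 2267 bases from the nearer end. They were chr13:21904916-21910560 (761 fragments), chr8:125689178-125694866 (720), chr11:60393218-60398997 (713), chr2:15944908-15950577 (699), chr5:43599764-43605434 (687), chr7:71272024-71277763 (685), chr10:22454622-22460392 and chr11:76362780-76368624 (657 each), chr12:70648355-70654105 (636), chr5:110330714-110336220 (623) and chr5:24737013-24742813 (592). Over all 18 the summit was nearer the lower coordinate in 12 and nearer the upper coordinate in 6. No strand is given in the list, and no repeat annotation was used here. The handling of reads with several alignments is not stated in the labels or headers, and whether these regions share reads was not tested.

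**Figure D3:**
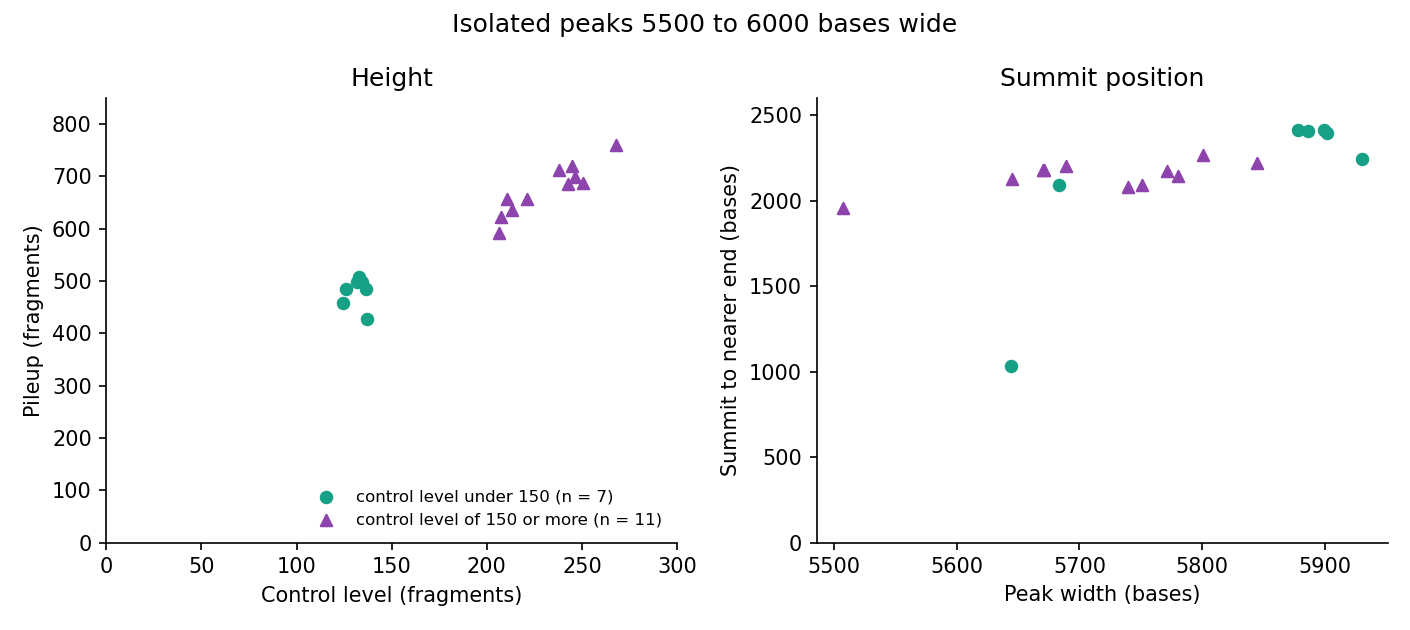
The 18 isolated peaks 5500 to 6000 bases wide, 1 point per region: pileup against control level in fragments (left) and distance from summit to nearer end against width, both in bases (right). The 7 regions with a control level under 150 and the 11 others form separate groups in height, and 17 of the 18 summits lie 1954 to 2411 bases from an end.

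Below the gap, regions of 3800 to 4929 bases numbered 10. They carried 228 to 703 fragments, at ratios of 2.49 to 4.41. Among them chr4:15164568-15169496 (4929 bases, 703 fragments, control level 255) and chr3:66900586-66905009 (4424 bases, 698 fragments, control level 248) fell within the pileup and control range of the 11 regions above. The region chr10:50142049-50146969 (4921 bases, 483 fragments, control level 125) fell within that of the 7. These 3 were picked after their values were seen. The region chr18:30426670-30430505, 3836 bases wide, was the lowest of the 10 in pileup, at 228 fragments.

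The summit, the base of highest pileup, lay anywhere from the margin to the middle of the peak. Its distance to the nearer end was a median of 28.5% of the width (interval from ranks 23.9% to 33.4%), where 50% is the middle. At 42 regions (13.8%, interval 10.1% to 18.2%) it lay within 5% of the width of an end, and at 70 (23.0%, interval 18.4% to 28.1%) within 10%. Over all listed peaks these shares were 7.18% and 13.2%. The middle 20% of the peak held 88 summits (28.9%, interval 23.8% to 34.3%). This was near the 32.0% of all listed peaks and the 29.0% of clustered peaks of the same height. The lowest 10% of the peak held 32 summits and the highest 10% held 38. Within 5% of an end lay 8 of the 224 clustered summits of the same height (3.57%, interval 1.55% to 6.92%) and 11 of the 236 isolated summits of lower pileup (4.66%, interval 2.35% to 8.19%). Among the 305 regions, such a summit was found in 15 of 62 under 600 bases (24.2%), in 21 of 121 of 600 to under 1200 bases (17.4%) and in 6 of 122 wider ones (4.92%).

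Summits at the margin went with low enrichment. The caller ends a peak where the excess falls to its threshold, so a summit at the margin lies close to that threshold. Summit position, ratio and q-value thus share their source, and the relations below are a description only. All 42 had ratios of 1.22 to 1.86, with a median of 1.41, and their median control level was 174 fragments. The 88 regions with their summit in the middle 20% of the peak had a median ratio of 2.655 and a median control level of 95.7. Among the 59 regions enriched less than 1.5-fold, 34 (57.6%, interval 44.1% to 70.4%) had the summit within 5% of an end. This was so in 8 of 114 regions (7.02%) enriched 1.5-fold to 2-fold and in 0 of 132 above, which allows a share of up to 2.27%. Clustered peaks of the same height gave 6 of 15 (40.0%, interval 16.3% to 67.7%), 2 of 46 and 0 of 163 in the same classes of enrichment. Isolated peaks of lower pileup, of which none was under 1.5-fold, gave 5 of 14 (35.7%, interval 12.8% to 64.9%) from 1.5-fold to 2-fold and 6 of 222 (2.70%) above. Across the 305 regions Spearman's rho between the summit's distance and fold enrichment was 0.68. Of the 191 regions whose −log10 q reached 10, 3 had such a summit. They were the 1187-fragment region of chromosome 1, chr8:86095712-86097653 and chr16:16488285-16489804 (262 fragments, 1.69-fold), the last named after its values were seen.

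At 4 regions the summit was the first base of the peak. They were chr12:8505428-8506324, with 520 fragments over 426 and the lowest enrichment of the 305 (1.22-fold), chr12:88223134-88223719 with 208 over 152 (1.37-fold), chr11:77284527-77285249 with 149 over 103 (1.45-fold) and chr1:16122556-16123059 with 128 over 83.7 (1.53-fold). Their −log10 q values were 2.02, 2.02, 2.05 and 2.39, at the edge of the caller's limit. In chr11:100937372-100937900, with 139 fragments (1.5-fold), the summit lay 1 base from the upper end. The list gives the pileup and ratio at the summit only, so the enrichment over the rest of these peaks is not known from it. The most central summits, at 49.5% to 50% of the width, were in chr17:35356869-35358037 (115 fragments, 1.71-fold), chr11:3194233-3195630 (127, 3.14-fold), chr6:103598731-103599712 (212, 3.73-fold), chr11:81875563-81876510 (114, 1.88-fold) and chr11:32196422-32197335 (147, 4.07-fold).

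**Figure D4:**
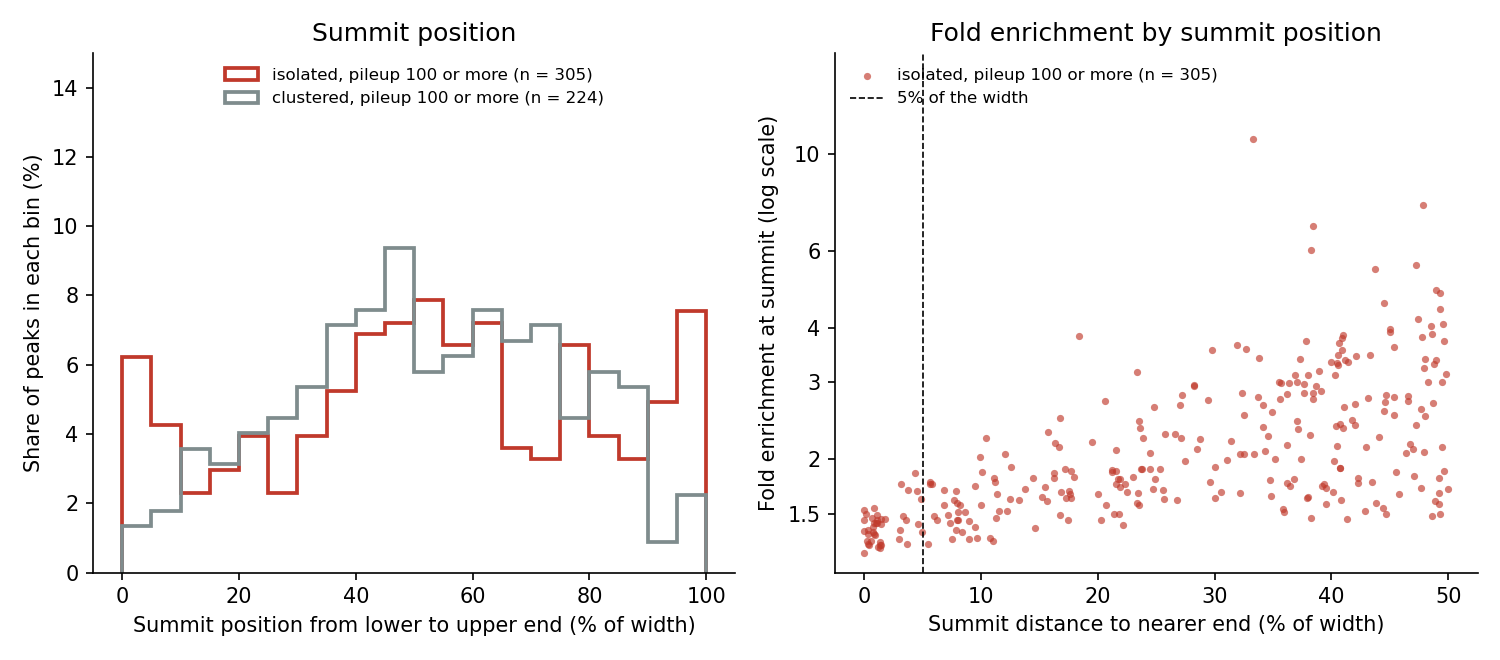
Left, position of the summit from the lower (0%) to the upper (100%) end of the peak as the share of peaks in each bin, for isolated (n = 305) and clustered (n = 224) peaks with a pileup of 100 or more. Right, fold enrichment (log axis) against the summit's distance from the nearer end as a percent of the width for the 305 isolated peaks. The 42 points left of the dashed line at 5% all lie at or below 1.86-fold.

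The regions were spread over all 20 chromosomes, with 6 to 29 on each and a median of 14.5. Chromosome 8 held 29, chromosome 5 held 26, chromosome 7 held 25, chromosome 11 held 22, and chromosomes 10 and 17 held 21 each, while chromosomes 13 and 16 held 6 each. Over the whole list the regions made up 32.2% of the peaks. As a share of the peaks listed on a chromosome they were 58.8% on X (10 of 17, interval 32.9% to 81.6%), 50.0% on chromosome 10 (21 of 42, interval 34.2% to 65.8%) and 44.6% on chromosome 8 (29 of 65, interval 32.3% to 57.5%). The lowest shares were 16.2% on chromosome 13 (6 of 37, interval 6.19% to 32.0%) and 18.5% on chromosome 9 (10 of 54, interval 9.25% to 31.4%), where clustered peaks made up 24 and 29 of those listed. The chromosomes whose shares are given were picked as the extremes of the 20. Their intervals take no account of that choice, so no chromosome is called enriched or depleted. Median fold enrichment per chromosome was between 1.605 and 2.28.

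**Figure D5:**
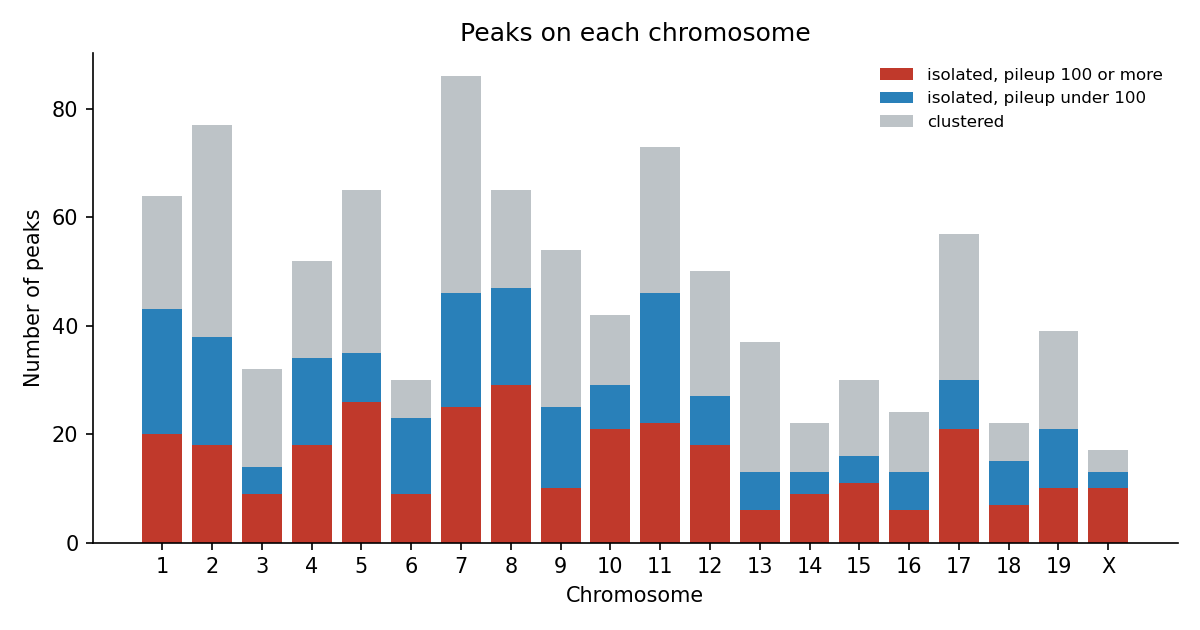
Number of peaks on chromosomes 1 to 19 and X, stacked as isolated with a pileup of 100 or more (red), isolated with a lower pileup (blue) and clustered (grey). Isolated peaks of high pileup are 10 of the 17 peaks on X and 6 of the 37 on chromosome 13, the extremes, beside 305 of all 938.

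On the X chromosome the 10 regions had a median pileup of 434 fragments and a median enrichment of 1.76. After chrX:54044920-54046786 (1094 fragments) the tallest were chrX:7306922-7308167 (662 fragments, 1.54-fold), chrX:50972233-50973714 (659, 2.68-fold) and chrX:50945547-50947084 (637, 2.63-fold). The wide region chrX:15051558-15057456 had 485 and chrX:98408220-98408808 had 383 (1.5-fold). The remaining 4 carried 152 to 183 fragments. Of these chrX:70473762-70475267 was enriched 3.29-fold, chrX:7470050-7470787 1.81-fold, chrX:98847493-98849138 1.71-fold and chrX:132424114-132425155 1.49-fold.

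The nearest other listed peak was a median of 463289 bases away, with quartiles of 122881 and 1452378. It lay at less than 20000 bases for 21 regions and at 1000000 bases or more for 104 (34.1%, interval 28.8% to 39.7%). The most remote was chrX:70473762-70475267, 16426976 bases from the next peak. It was followed by chr4:80556567-80557875 (15280031 bases), chr3:35971657-35972484 (15139084 bases), chr6:136757082-136757609 (10443084 bases) and chr6:103598731-103599712 (9775090 bases). These 5 carried 152 to 372 fragments and were enriched 1.36-fold to 3.73-fold.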

How the data were processed

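Per the submitters' processing notes, alignment to mm9 used TopHat2 2.0.6 and peak calling MACS2 2.0.9. Peaks were called on 1 Flag-Zc3h10 library (10439835 tags after limiting duplicates to 2 per position, 32.6% of all) against 1 GFP library (10849213 tags, 30.3%), at a q-value of 0.01, per the file headers. The deposited signal is the pileup at the summit, and the deposited fold enrichment is its ratio to the local control. The deposited −log10 p-values and q-values are the caller's own. Starts, ends and summits were treated as 1-based. From these the control level was computed as pileup over fold enrichment. The median absolute difference between the deposited −log10 p and a Poisson tail at that level, for the 305 regions, was 0.0566 for counts above the pileup and 0.293 with the pileup itself included. With 1 library per group there is no replicate error and no test of the conditions. PCR duplicates without molecular identifiers are not independent.

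Regions, limits and the rule for those named (extremes of pileup, ratio, width, control level, summit position and distance, both sides of the pileup limit, all on X, all 5500 to 6000 bases wide) were chosen with earlier results of these data known. Joining and intervals were tested on simulated data. No gene or sequence is given, because no reference of mm9 was used here. Shares have 95% exact (Clopper-Pearson) intervals, medians intervals from order statistics, and shares of 0 a limit of 3 counts. Other joining distances (5000 and 20000 bases), pileup limits (50 and 200), a −log10 q of 10 and leaving out the widest regions were tried. Python 3.11.15, numpy 2.4.6, pandas 2.3.3, scipy 1.17.1 and matplotlib 3.10.9 were used.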

Additional observations from a re-analysis of the deposited data

How the results depend on the processing

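With a joining distance of 5000 or 20000 bases the 305 regions became 341 or 284, and at 20000 bases the 13 regions of at least 4-fold enrichment became 8. A pileup limit of 50 gave a median control level of 95.6, a median fold enrichment of 2.085 and 34 regions of at least 4-fold. A pileup limit of 200 left 193 regions, with a median width of 1203 bases, a median control level of 182, 5 of at least 4-fold and 6 on X in place of 10. A −log10 q of at least 10 left 191 regions, with medians of 1310 bases, 2.37-fold and a summit 37.2% of the width from the nearer end, and 6 on X. Applied before joining, a setting added after seeing the data, it gave 1311 bases, 2.38-fold, 37.0% and 6 on X. The 42 summits within 5% of an end became 3 in both of these settings and 70 with a limit of 10%. Without the regions of 5500 to 6000 bases, or without the region of lowest p (also added later), no value moved beyond its interval or by over 1.5 times, and regions lay on 20 chromosomes in every setting. No paired analysis was possible because the groups hold 1 library each.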

Other observations

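Some isolated regions had a close counterpart on the same chromosome. Of the 20 pairs of isolated peaks of high pileup that lay within 100000 bases of each other, 2 pairs had widths, pileups and fold enrichments of which the larger exceeded the smaller by at most 15%. This limit was set after the values had been seen. The regions chr11:32183605-32184483 and chr11:32196422-32197335, 11939 bases apart, were 879 and 914 bases wide, carried 163 and 147 fragments over control levels of 40.4 and 36.1, and were enriched 4.03-fold and 4.07-fold. Their summits lay at 51.5% and 49.5% of the width from the lower end. The regions chrX:50945547-50947084 and chrX:50972233-50973714, 25149 bases apart, were 1538 and 1482 bases wide and carried 637 and 659 fragments over control levels of 242 and 246. Their summits lay at 41.1% and 42.0% of the width. With a joining distance of 20000 bases the pair on chromosome 11 would count as clustered, while the pair on X would remain isolated. Whether the members of either pair share reads was not tested.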
